A study of Mus musculus with 6 samples.

Results

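The SLC25 genes encode the mitochondrial carriers, a family of related membrane proteins, most of which sit in the inner mitochondrial membrane and pass nucleotides, phosphate, carboxylates, amino acids and cofactors between the cytosol and the matrix. Their expression was examined in bEnd.3 cells, a mouse brain endothelial line, that had received mitochondria isolated from other cells. Members were the genes of the deposited table with a name beginning in Slc25a and a protein-coding transcript. There were 47 of them among 55401 genes, and 1 further gene with such a name, Slc25a5-ps, was left out as a pseudogene, with 0 to 8 counts per library. Of the 47 members, 39 carried the annotation term for the mitochondrial inner membrane and 44 a mitochondrial term of some kind. The 8 without the inner membrane term were Slc25a17, Slc25a27, Slc25a46, Slc25a4, Slc25a53, Slc25a23, Slc25a44 and Slc25a2. They include the ADP/ATP carrier Slc25a4, so lack of the term does not place a carrier outside that membrane. The 47 members lay on 19 chromosomes, 4 of them on the X chromosome.

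The mitochondria came from MLO-Y4 cells, a mouse osteocyte-like line. The mitochondria group was bEnd.3 cells of wild-type genotype, per the labels, kept for 24 h with these mitochondria in 100 ul of medium. The control group was the same line given an equal volume of medium without mitochondria. Each group had 3 libraries, and the labels do not state whether these were separate cultures, so a p-value here speaks only of library-to-library spread, part or all of which may be technical. bEnd.3 is a single immortalised line, and both lines are from mouse, so RNA carried over with the added mitochondria cannot be told apart from that of the recipient cells. Between 22452 and 22875 genes were detected per library, on totals of 65394770 to 73376834 estimated counts. Among 10 endothelial markers Flt1, Tie1 and Eng were expressed, whereas Pecam1 was at most 0.201 FPKM, Cdh5 at most 0.172 FPKM and Cldn5 was at 0 in every library.

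The carriers are made on cytosolic ribosomes from nuclear genes, and those of the inner membrane are inserted there by the TIM22 complex. Most work as exchangers, so that the import of one solute is coupled to the export of another. Oxidative phosphorylation depends on the ADP/ATP and phosphate carriers, the malate-aspartate shuttle on the oxoglutarate and aspartate/glutamate carriers, fatty acid oxidation on the carnitine/acylcarnitine carrier, and haem and iron-sulfur cluster synthesis on the mitoferrins. Levels are given in FPKM, fragments scaled to gene length and sequencing depth. In this unit genes can be set side by side within a library, although their order depends on the length used. Fold changes are those of mitochondria over control libraries, fitted to the estimated counts with edgeR, and a gene was called at a Benjamini-Hochberg adjusted p under 0.05 over all 12774 genes with a mean FPKM of at least 1.

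No carrier gene passed the test between cells with and without added mitochondria. Of the 47 members, 37 had a mean FPKM of at least 1 and were tested, and 0 were called by edgeR, against 21 of 12774 genes, or 0.164%, in the whole table. DESeq2, which called 2.79% of all genes, and limma on log2(FPKM + 1), which called 17 of 12774, also called 0 members. They gave 3 and 2 members at an unadjusted p under 0.05, against 1798 and 1622 of the 12774 genes. At an unadjusted edgeR p under 0.05 there were 3 members, or 8.11% of those tested, against 13.0% of all tested genes. These were Slc25a20 and Slc25a45, which were higher with mitochondria, and Slc25a36, which was lower, against 6.79% of all tested genes higher and 6.24% lower. With the replicate number as a block the count was 5, against 16.9% of all tested genes, the others being Slc25a3 and Slc25a13, both lower, and without mitochondria replicate 1 or without mitochondria replicate 2 it was 1. Fitted folds ran from 0.859 to 1.23, with a median log2 fold change of -0.0207 over the members and -0.00156 over all tested genes. The 95% interval of the fold lay within 1.5-fold either way for 33 of the 37 members, or 89.2%, against 74.5% of all tested genes. In bulk RNA, fewer cells expressing a gene and less RNA per cell cannot be told apart.

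**Figure D1:**
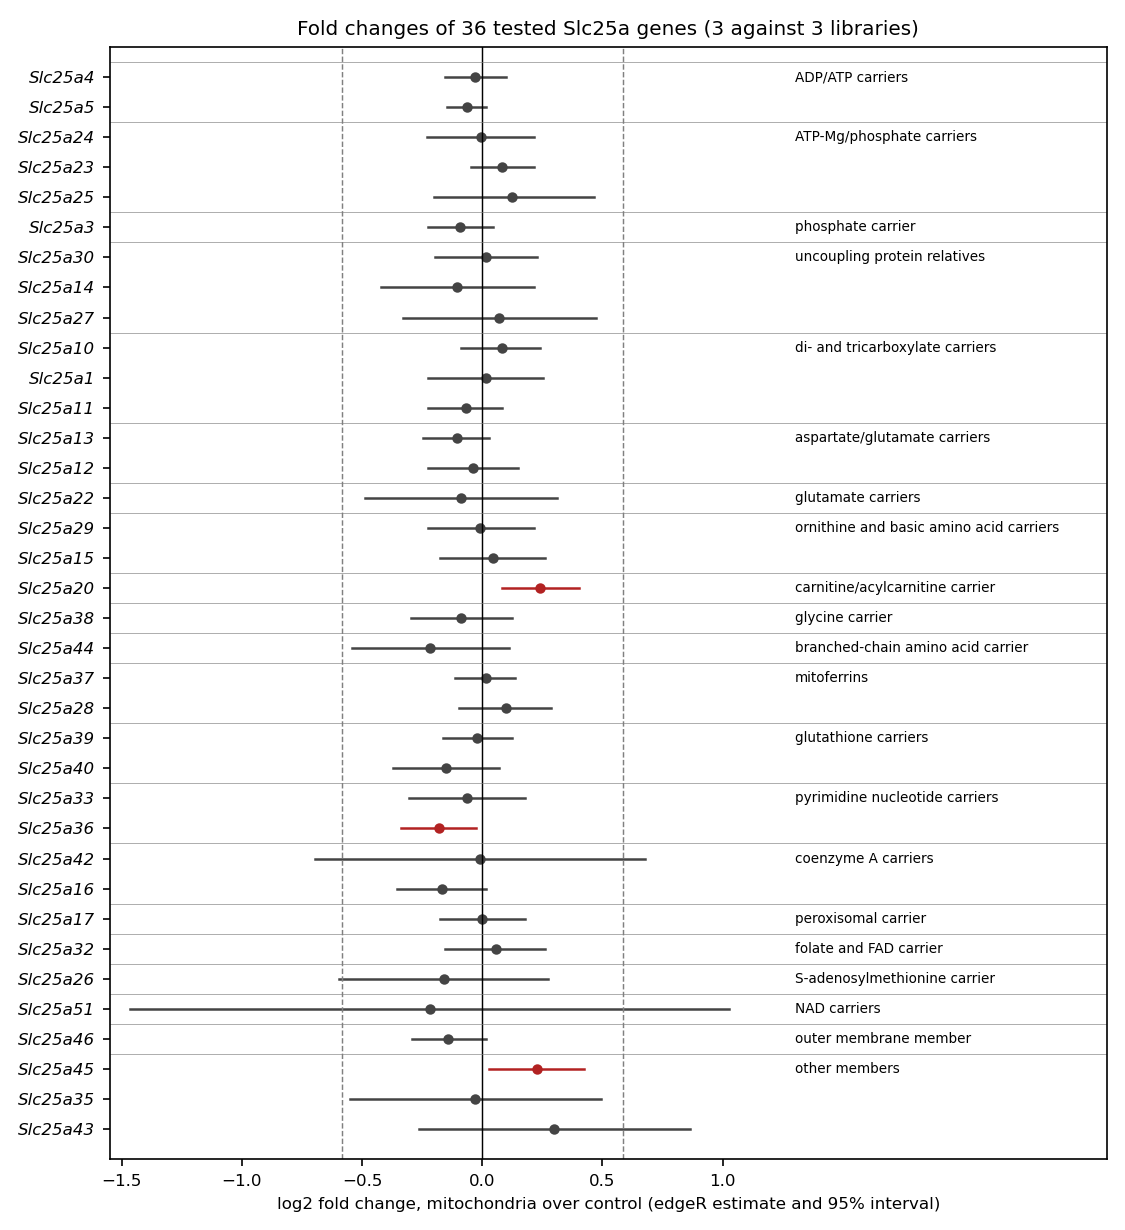
Fitted log2 fold change (mitochondria over control, horizontal axis) of 36 tested Slc25a genes, ordered by transported substrate, with the point as the edgeR estimate from 3 against 3 libraries and the bar as its 95% interval. Dashed lines mark 1.5-fold either way, and red marks the 3 genes with an unadjusted p under 0.05. Slc25a51 has the widest bar, from 0.362-fold to 2.04-fold, and 32 of the 36 bars stay between the dashed lines.

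The summed FPKM of the 47 members did not separate the groups. It was 742.1, 717.6 and 747.3 in control libraries, with a mean of 735.7 ± 15.9 (SD, n = 3), and 746.4, 712.3 and 726.6 in mitochondria libraries, with a mean of 728.5 ± 17.1 (SD, n = 3). The family made up 0.222 to 0.231% of all FPKM in a library, and 0.266 to 0.281% when the genes of mitochondrial DNA were left out. Slc25a4 and Slc25a5 alone held 30.9 to 32.0% of the members' FPKM, and the 5 highest members held 51.6 to 52.8%. Mean levels were at least 20 FPKM for 11 members, at least 10 for 14 and between 1 and 10 for 23, while 10 members were under 1. The family thus spread from over 100 FPKM down to genes with no count.

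**Figure D2:**
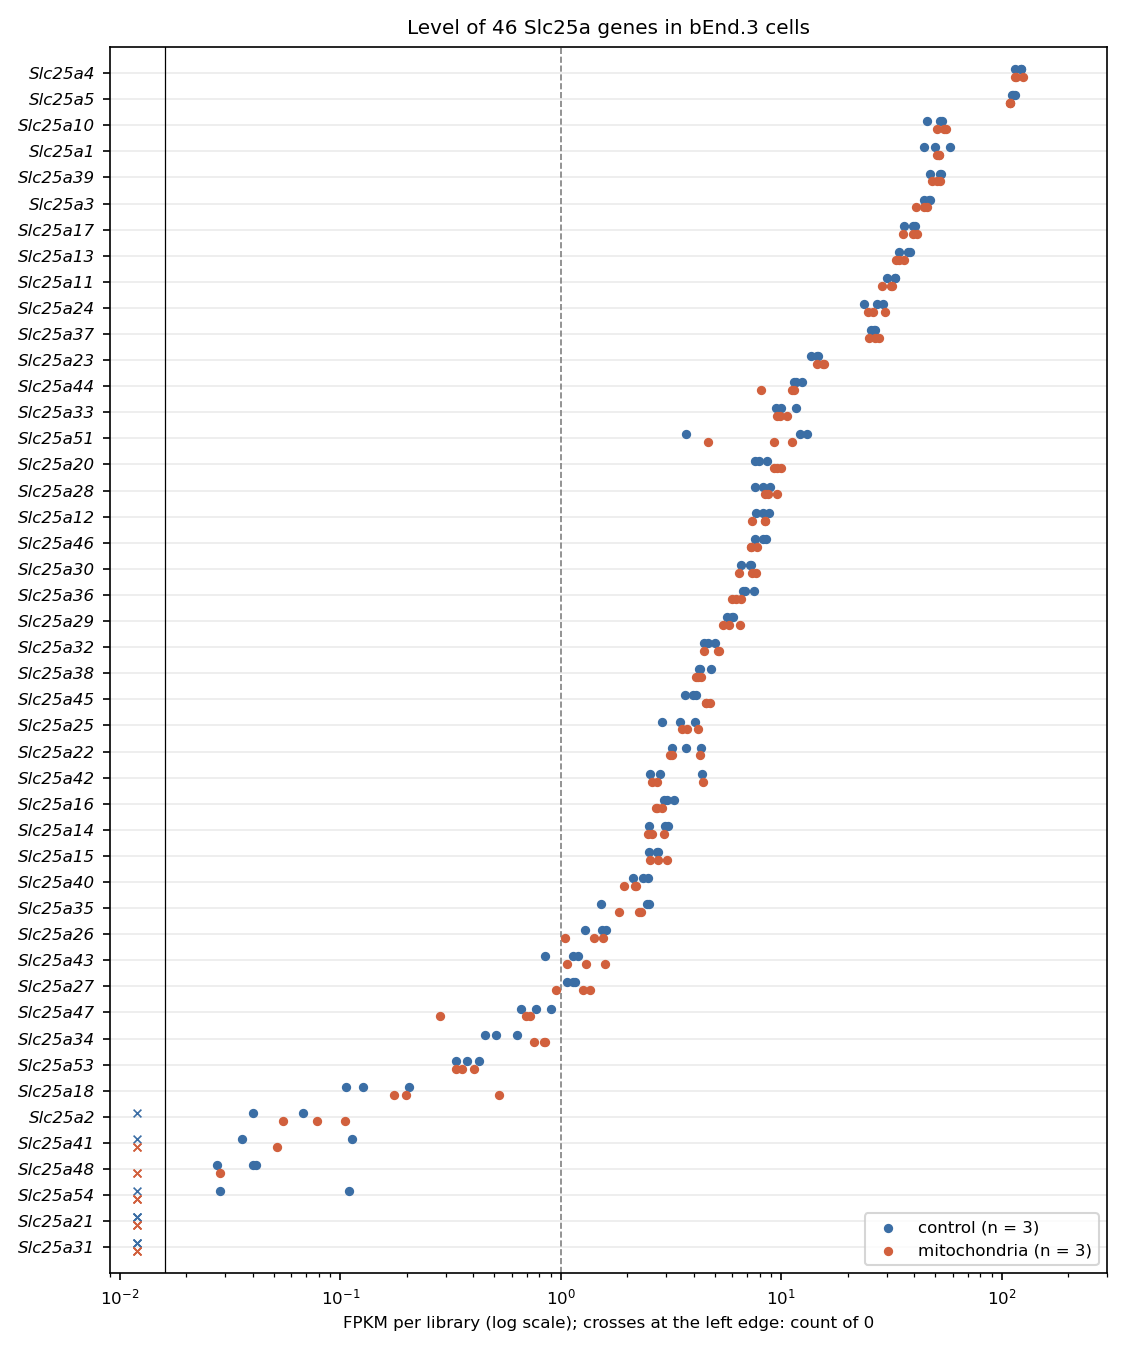
FPKM of 46 Slc25a genes in each library (horizontal axis, log scale), ordered by mean level, with control libraries in blue and mitochondria libraries in orange (3 points each, no averaging). Crosses at the left edge are libraries with a count of 0, and the dashed line marks 1 FPKM, the filter for testing. Slc25a4 and Slc25a5 stand at the top, near 119.0 and 111.1 FPKM, Slc25a51 has low and high libraries in both groups, and Slc25a21 and Slc25a31 have crosses only.

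The ADP/ATP carriers, which exchange matrix ATP for cytosolic ADP, were the most abundant members by deposited FPKM. The start regions of the 3 genes are shown because the genes do the same job at very different levels here: Slc25a4, best known from heart and skeletal muscle, Slc25a5, best known from dividing cells, and Slc25a31, best known from the testis. Each sequence is a RefSeq window of 300 bases on GRCm38.p6, from 250 bases before to 50 bases after the annotated start, written 5′ to 3′ on the strand of the gene, with CpG dinucleotides in capitals. The windows hold 25, 18 and 22 CpG dinucleotides in the order given.
Slc25a4, chr8:46211013-46211312, minus strand: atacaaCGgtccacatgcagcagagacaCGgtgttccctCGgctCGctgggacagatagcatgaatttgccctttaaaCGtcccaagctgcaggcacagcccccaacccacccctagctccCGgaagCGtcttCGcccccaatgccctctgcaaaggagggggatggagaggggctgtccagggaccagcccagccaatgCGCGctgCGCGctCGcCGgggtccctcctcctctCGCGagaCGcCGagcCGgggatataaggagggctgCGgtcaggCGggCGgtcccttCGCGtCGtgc
Slc25a5, chrX:36795347-36795646, plus strand: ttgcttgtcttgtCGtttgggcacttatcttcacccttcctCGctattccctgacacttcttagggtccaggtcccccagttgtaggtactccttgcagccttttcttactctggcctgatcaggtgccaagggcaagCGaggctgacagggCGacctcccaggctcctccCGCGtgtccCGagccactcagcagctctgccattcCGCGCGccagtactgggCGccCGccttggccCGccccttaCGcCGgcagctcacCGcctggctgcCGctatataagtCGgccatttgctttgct
Slc25a31, chr3:40708621-40708920, plus strand: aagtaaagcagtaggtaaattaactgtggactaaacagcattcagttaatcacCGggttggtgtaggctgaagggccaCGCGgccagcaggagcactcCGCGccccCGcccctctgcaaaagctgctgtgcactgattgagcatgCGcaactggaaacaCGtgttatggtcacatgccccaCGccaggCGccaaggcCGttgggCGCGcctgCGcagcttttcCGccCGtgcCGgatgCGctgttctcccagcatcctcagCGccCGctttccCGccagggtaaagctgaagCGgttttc

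Slc25a4 (ENSMUSG00000031633, chromosome 8, 46206797 to 46211284, GRCm38) was at 122.7, 114.2 and 122.0 FPKM in control libraries and at 124.3, 114.9 and 115.8 FPKM in mitochondria libraries. The ranges of the groups overlapped, and its fold was 0.980 (95% interval 0.899 to 1.07; log2 fold change -0.03, SE 0.052; adjusted p = 0.847). Slc25a5 (ENSMUSG00000016319, chromosome X, 36795651 to 36798807) was at 114.7, 111.7 and 112.7 FPKM in control libraries and at 108.9, 109.4 and 109.0 FPKM in mitochondria libraries. All 3 mitochondria libraries lay below all 3 controls, but the distance was small, with a fold of 0.956 (95% interval 0.902 to 1.01; log2 fold change -0.06, SE 0.035; adjusted p = 0.486). Slc25a31 had a count of 0 in all 6 libraries, where a floor of 12 counts, taken as about 3 fragments, corresponds to 0.0685 to 0.0768 FPKM. Its window held 22 CpG dinucleotides, between those of its expressed relatives, beside no detected transcript. Slc25a4 made up 51.4 ± 0.749% (SD, n = 3) of the FPKM of the 3 genes in control libraries and 52.0 ± 1.12% (SD, n = 3) in mitochondria libraries, so that the 2 expressed genes were present in nearly equal amounts in both groups.

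Slc25a3, the carrier that brings in phosphate for ATP synthesis and also carries copper, was at 46.8, 44.2 and 47.0 FPKM in control libraries and at 44.3, 40.7 and 45.6 FPKM in mitochondria libraries. The groups overlapped, with a fold of 0.938 (95% interval 0.856 to 1.03; adjusted p = 0.520). Of the calcium-regulated ATP-Mg/phosphate carriers, which adjust the adenine nucleotide content of the matrix, Slc25a24 was the most abundant by FPKM, at 28.8, 23.8 and 27.3 in control libraries and 26.1, 24.7 and 29.5 in mitochondria libraries (fold 0.996). Slc25a23 followed, with 14.6, 13.6 and 14.5 FPKM in control libraries and 15.4, 15.6 and 14.5 FPKM in mitochondria libraries (fold 1.06, adjusted p = 0.565). Slc25a25 averaged 3.64 FPKM over the 6 libraries (fold 1.09, 95% interval 0.869 to 1.38), and the related Slc25a41 had at most 12 counts in a library. The uncoupling protein relatives were low, with mean levels of 7.08 FPKM for Slc25a30, 2.76 for Slc25a14 and 1.15 for Slc25a27, and folds of 1.01, 0.929 and 1.05.

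The di- and tricarboxylate carriers connect the citric acid cycle with the cytosol. Slc25a10, which exchanges malate or succinate for phosphate, was at 52.2, 46.0 and 53.4 FPKM in control libraries and at 54.5, 51.0 and 56.0 FPKM in mitochondria libraries (fold 1.06, 95% interval 0.941 to 1.18; log2 fold change 0.08, SE 0.068; adjusted p = 0.662). Slc25a1, which exports citrate for lipid synthesis, was at 49.8, 58.2 and 44.4 FPKM in control libraries and at 52.1, 52.0 and 50.9 FPKM in mitochondria libraries (fold 1.01, 95% interval 0.856 to 1.19; log2 fold change 0.01, SE 0.098; adjusted p = 0.972). The 3 mitochondria libraries lay within the range of the controls, whose SD was 6.94 FPKM against 0.650 FPKM in the mitochondria group. Slc25a11, the oxoglutarate/malate carrier, was at 32.7, 30.0 and 32.8 FPKM in control libraries and at 31.5, 28.5 and 31.9 FPKM in mitochondria libraries (fold 0.953). The 3 genes held 38.1%, 38.0% and 23.9% of their summed FPKM in control libraries, for Slc25a1, Slc25a10 and Slc25a11, and 38.0%, 39.5% and 22.5% in mitochondria libraries. Slc25a21, the oxodicarboxylate carrier, had a count of 0 in every library, with a floor of 0.0299 to 0.0336 FPKM.

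The aspartate/glutamate carriers complete the malate-aspartate shuttle, and the form known from liver was the more abundant. Slc25a13 (citrin) was at 37.6, 34.2 and 38.3 FPKM in control libraries and at 34.2, 33.1 and 36.0 FPKM in mitochondria libraries (fold 0.930, 95% interval 0.844 to 1.02; log2 fold change -0.10, SE 0.058; adjusted p = 0.496). Slc25a12 (aralar), the form known from brain and muscle, was at 8.26, 7.69 and 8.77 FPKM in control libraries and at 8.47, 7.38 and 8.42 FPKM in mitochondria libraries (fold 0.973, 95% interval 0.856 to 1.11; log2 fold change -0.04, SE 0.077; adjusted p = 0.864). The share of Slc25a13 in the pair was 81.7 ± 0.305% (SD, n = 3) in control and 81.0 ± 0.816% (SD, n = 3) in mitochondria libraries. Of the glutamate carriers, Slc25a22 was at 3.19, 4.33 and 3.68 FPKM in control libraries and at 3.12, 4.29 and 3.20 FPKM in mitochondria libraries (fold 0.940, 95% interval 0.713 to 1.24; log2 fold change -0.09, SE 0.17; adjusted p = 0.852). Its relative Slc25a18 stayed under the filter, at 0.106, 0.204 and 0.127 FPKM in control and 0.198, 0.522 and 0.175 FPKM in mitochondria libraries, on 17 to 78 counts. Slc25a22 held 96.3 ± 0.706% (SD, n = 3) of the pair's FPKM in control libraries and 92.7 ± 3.06% (SD, n = 3) in mitochondria libraries, without overlap of the groups. The share was lower by 3.65 points with mitochondria, but by 1.9 points without mitochondria replicate 2. It turns on the few counts of Slc25a18, whose fold in the fit without a filter was 1.99 (adjusted p = 0.612). Atp6v1e1 overlaps Slc25a18, and the strand setting of the counting is not given in the sources used here, so their reads may have been shared.

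Among other amino acid carriers, Slc25a29, a carrier of basic amino acids, had a mean of 5.89 FPKM over the 6 libraries (fold 0.994), and Slc25a15, the ornithine carrier of the urea cycle, had a mean of 2.72 FPKM (fold 1.03). Slc25a2, a further ornithine carrier, had 0 to 13 counts per library. Slc25a38, which brings in glycine for haem synthesis, averaged 4.33 FPKM (fold 0.940). Slc25a44, a carrier of branched-chain amino acids, had the lowest fold of the 37 tested members, at 0.859 (95% interval 0.686 to 1.08; adjusted p = 0.538). It was at 11.6, 11.4 and 12.4 FPKM in control libraries and at 11.4, 11.2 and 8.10 FPKM in mitochondria libraries. Mitochondria replicate 3 stood below the 5 other libraries, and without it the fold was 0.952.

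Slc25a20, the carnitine/acylcarnitine carrier that lets fatty acids into the matrix for oxidation, had the smallest p of the 37 tested members. It lies on chromosome 9 from 108662088 to 108684641 (ENSMUSG00000032602). Its level was 7.94, 7.60 and 8.59 FPKM in control libraries, with a mean of 8.04 ± 0.504 (SD, n = 3), and 9.30, 10.0 and 9.51 FPKM in mitochondria libraries, with a mean of 9.61 ± 0.367 (SD, n = 3). Every mitochondria library was above every control library. The fold was 1.18 (95% interval 1.06 to 1.32), a log2 fold change of 0.24 with SE 0.064, with an unadjusted edgeR p of 0.00768 that became 0.258 after adjustment over all tested genes. DESeq2 gave the lowest adjusted p among 15 alternative settings, 0.0634, and the highest was 0.519. The enzymes of the carnitine shuttle showed no call either. Of 5 listed, 4 were tested and 0 passed an unadjusted p under 0.05. Crat, carnitine acetyltransferase, had the smallest p of them, with 12.9, 11.8 and 10.9 FPKM in control libraries and 13.5, 12.8 and 13.8 FPKM in mitochondria libraries (fold 1.12, adjusted p = 0.425). Cpt1b, the muscle form of the outer enzyme, was at 0.165 FPKM in mitochondria replicate 2 and at 0.844 to 1.55 FPKM in the 5 other libraries.

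Slc25a45 and Slc25a36 were the other members with an unadjusted p under 0.05. Slc25a45 (chromosome 19, 5877808 to 5885766) was at 3.99, 3.65 and 4.12 FPKM in control libraries and at 4.54, 4.55 and 4.76 FPKM in mitochondria libraries. The mitochondria libraries were all above the controls, with a fold of 1.17 (95% interval 1.02 to 1.34; log2 fold change 0.22, SE 0.082). The edgeR p of Slc25a45 was 0.0334 before and 0.349 after adjustment over all tested genes. Slc25a36 (chromosome 9, 97074961 to 97111157), a carrier of pyrimidine nucleotides, was at 6.87, 6.67 and 7.54 FPKM in control libraries and at 6.20, 5.96 and 6.59 FPKM in mitochondria libraries. Here the mitochondria libraries were all below the controls, with a fold of 0.882 (95% interval 0.791 to 0.983; log2 fold change -0.18, SE 0.065). The edgeR p of Slc25a36 was 0.0299 before and 0.339 after adjustment. The antisense gene Gm16185 overlaps Slc25a36, and the strand setting of the counting is not given in the sources used here, so reads of the 2 genes may have been shared. The other pyrimidine nucleotide carrier, Slc25a33, was at 11.6, 9.43 and 10.0 FPKM in control libraries and at 9.82, 10.6 and 9.55 FPKM in mitochondria libraries (fold 0.956, 95% interval 0.809 to 1.13; log2 fold change -0.06, SE 0.10; adjusted p = 0.821). It held 59.5 ± 2.99% (SD, n = 3) of the pair in control libraries and 61.5 ± 2.43% (SD, n = 3) in mitochondria libraries.

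The start regions of the 3 genes with an unadjusted p under 0.05 are shown side by side, in the same form as above, because they differ in CpG content. They hold 13, 29 and 7 CpG dinucleotides in the order given. Each of the 3 genes has 1 window in the table.
Slc25a20, chr9:108661886-108662185, plus strand: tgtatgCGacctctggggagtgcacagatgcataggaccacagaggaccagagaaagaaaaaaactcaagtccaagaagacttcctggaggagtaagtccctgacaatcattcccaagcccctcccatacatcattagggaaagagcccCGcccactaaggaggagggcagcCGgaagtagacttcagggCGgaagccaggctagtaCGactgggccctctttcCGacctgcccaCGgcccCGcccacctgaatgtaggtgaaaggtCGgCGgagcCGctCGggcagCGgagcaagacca
Slc25a36, chr9:97110992-97111291, minus strand: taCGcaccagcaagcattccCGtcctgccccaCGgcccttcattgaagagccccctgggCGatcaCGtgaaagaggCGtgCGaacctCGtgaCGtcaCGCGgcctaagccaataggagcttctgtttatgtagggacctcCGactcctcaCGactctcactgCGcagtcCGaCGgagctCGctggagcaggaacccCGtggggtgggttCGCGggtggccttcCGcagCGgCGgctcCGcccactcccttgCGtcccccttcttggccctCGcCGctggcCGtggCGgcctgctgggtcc
Slc25a45, chr19:5877572-5877871, plus strand: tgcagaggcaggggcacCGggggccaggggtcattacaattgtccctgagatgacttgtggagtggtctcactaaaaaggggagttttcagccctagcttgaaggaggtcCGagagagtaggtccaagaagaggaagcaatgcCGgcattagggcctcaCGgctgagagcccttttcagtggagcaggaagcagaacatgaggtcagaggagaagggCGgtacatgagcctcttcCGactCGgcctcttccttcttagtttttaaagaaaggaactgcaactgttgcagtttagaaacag

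On library-scaled counts, all mitochondria libraries were above all controls in 2 members, Slc25a20 and Slc25a45, which is 5.41% of those tested against 10.8% of all tested genes. All mitochondria libraries were below all controls in 4 members, Slc25a5, Slc25a36, Slc25a44 and Slc25a16, which is 10.8% against 10.6% of all tested genes. Folds were below 1 in 23 of the 37 members, or 62.2%, against 50.4% of all tested genes. That count depended on the setting, at 18 of 37 by limma and 17 of 37 without control replicate 1. Over all tested genes the median log2 fold change was -0.00156 in the main fit. It was 0.0087 by limma on log2(FPKM + 1) and -0.0013 without control replicate 1. The shares of members describe the list and were not tested.

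The mitoferrins bring iron into the matrix, and Slc25a37 (mitoferrin 1), best known from red cell precursors, was the main form. It was at 26.6, 25.4 and 26.2 FPKM in control libraries and at 26.5, 27.8 and 25.1 FPKM in mitochondria libraries (fold 1.01, 95% interval 0.924 to 1.10; log2 fold change 0.01, SE 0.052; adjusted p = 0.946). Slc25a28 (mitoferrin 2) was at 8.24, 7.61 and 8.88 FPKM in control libraries and at 8.46, 8.67 and 9.54 FPKM in mitochondria libraries (fold 1.07, 95% interval 0.935 to 1.22; log2 fold change 0.10, SE 0.080; adjusted p = 0.643). Slc25a37 held 76.0 ± 1.17% (SD, n = 3) of the pair's FPKM in control and 74.8 ± 2.1% (SD, n = 3) in mitochondria libraries.

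The glutathione carriers were more unequal still. Slc25a39 was at 52.2, 47.1 and 53.1 FPKM in control libraries and at 52.4, 48.2 and 51.0 FPKM in mitochondria libraries (fold 0.986, 95% interval 0.892 to 1.09; log2 fold change -0.02, SE 0.060; adjusted p = 0.912). Slc25a40 was at 2.48, 2.13 and 2.35 FPKM in control libraries and at 2.18, 1.94 and 2.19 FPKM in mitochondria libraries (fold 0.900, 95% interval 0.774 to 1.05; log2 fold change -0.15, SE 0.090; adjusted p = 0.526). The share of Slc25a40 was 4.36 ± 0.154% (SD, n = 3) in control and 3.99 ± 0.133% (SD, n = 3) in mitochondria libraries. The 2 groups of shares did not touch, with 4.23 to 4.53% against 3.86 to 4.13%, although neither gene passed the test. Among the other subfamilies, only the glutamate carriers had shares without overlap. In levels rather than shares, groups did not overlap in 21.4% of all tested genes. An exact permutation test of 3 against 3 libraries cannot give a p below 0.1, so the shares were not tested.

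**Figure D3:**
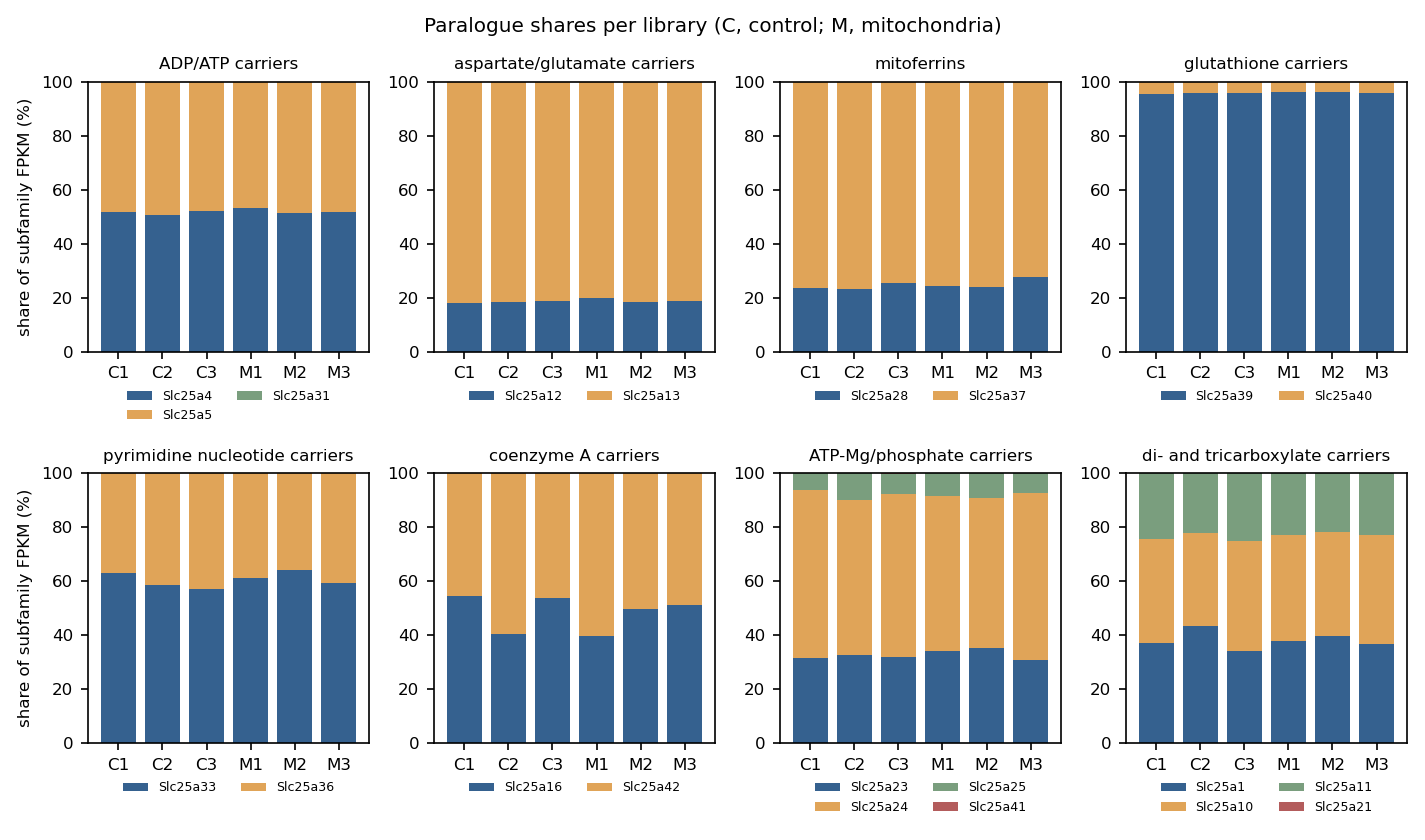
Share of each gene in the summed FPKM of its subfamily (vertical axis, percent) in control libraries 1 to 3 and mitochondria libraries 1 to 3, 1 stacked bar per library. Slc25a4 and Slc25a5 divide the ADP/ATP carriers almost evenly in every library, Slc25a13 and Slc25a37 lead their pairs at 81.7% and 76.0% of control FPKM, Slc25a39 leads at 95.6%, and the coenzyme A carriers shift between libraries of the same group.

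Carriers of cofactors were mostly low. The coenzyme A carriers were Slc25a16, at 3.04, 2.95 and 3.25 FPKM in control libraries and 2.89, 2.72 and 2.69 FPKM in mitochondria libraries (fold 0.891, 95% interval 0.783 to 1.01; log2 fold change -0.17, SE 0.078; adjusted p = 0.430), and Slc25a42. Slc25a42 was at 2.54, 4.37 and 2.81 FPKM in control libraries and at 4.41, 2.74 and 2.59 FPKM in mitochondria libraries (fold 0.993, 95% interval 0.617 to 1.60; log2 fold change -0.01, SE 0.28; adjusted p = 0.992). Control replicate 2 and mitochondria replicate 1 were high for Slc25a42, and the share of Slc25a16 in the pair therefore ran from 39.6 to 54.5%. Slc25a17, a peroxisomal carrier of coenzyme A and related cofactors, was the exception in level, at 39.5, 36.1 and 40.2 FPKM in control libraries and 39.7, 41.2 and 35.7 FPKM in mitochondria libraries (fold 0.999). Mean levels over the 6 libraries were 4.82 FPKM for Slc25a32, which carries folate and FAD, and 1.41 FPKM for Slc25a26, which carries S-adenosylmethionine, with folds of 1.04 and 0.896.

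Slc25a51, the carrier of NAD, varied most within groups among the 37 tested members. It was at 3.69, 12.1 and 13.1 FPKM in control libraries and at 11.2, 4.63 and 9.22 FPKM in mitochondria libraries (fold 0.860, 95% interval 0.362 to 2.04; adjusted p = 0.888). Control replicate 1 and mitochondria replicate 2 were the low libraries, so each group held both low and high values. Its SD of log2 CPM, the library-scaled count, within groups was 0.862, and 2.54% of all tested genes had a larger one, whereas the median over the members was 0.10 and that over all tested genes 0.118. Its counts were 1645, 5491 and 5305 in control libraries and 4865, 1989 and 3726 in mitochondria libraries, a range wider than that of the neighbouring genes. Shb had 2033 to 2481 counts, Exosc3 1412 to 1963 and Dcaf10 817 to 1850 in the same libraries. Leaving out control replicate 1 gave a fold of 0.658, and leaving out mitochondria replicate 2 gave 1.05, so no direction can be given for Slc25a51.

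Slc25a46, an outer membrane member that takes part in mitochondrial shape and lipid traffic, was at 7.61, 8.50 and 8.26 FPKM in control libraries and at 7.76, 7.27 and 7.28 FPKM in mitochondria libraries (fold 0.907, 95% interval 0.817 to 1.01; adjusted p = 0.418). Slc25a35 averaged 2.15 FPKM (fold 0.980). Slc25a43 had the highest fold of the 37 tested members, 1.23, with a wide interval of 0.834 to 1.82 at 0.847 to 1.58 FPKM, and its groups overlapped.

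The 10 members under the filter were Slc25a47, Slc25a34, Slc25a53, Slc25a18, Slc25a2, Slc25a41, Slc25a48, Slc25a54, Slc25a21 and Slc25a31. Slc25a34 was at 0.454, 0.633 and 0.509 FPKM in control libraries and at 0.759, 0.840 and 0.845 FPKM in mitochondria libraries. All mitochondria libraries lay above the controls, on 98 to 175 counts, and a fit without the filter gave a fold of 1.52 with an adjusted p of 0.590. Slc25a47, a gene known from liver, was at 0.661, 0.775 and 0.899 FPKM in control libraries and at 0.698, 0.282 and 0.726 FPKM in mitochondria libraries. Liver transcripts were present at low levels in most libraries, with 8 hepatocyte markers summing to 33.6 to 48.6 CPM in control libraries and to 0.286, 34.4 and 30.8 in mitochondria libraries. The libraries lowest in the 2 measures differed, being mitochondria replicate 2 for Slc25a47 and mitochondria replicate 1 for the markers. Their part in the level of Slc25a47 was not tested. Slc25a53 was at 0.333 to 0.425 FPKM, and Slc25a2, Slc25a41, Slc25a48 and Slc25a54 had 0 to 16 counts per library. Slc25a54 had 16, 5 and 0 counts in control libraries and 0 in each mitochondria library, which is too few to compare.

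The order of the members depends on the gene length behind FPKM. The deposited values divide by the merged exon length of all annotated transcripts, which was 1 to 3.44 times the length of the principal coding transcript, with a median of 1.36. Slc25a3 had the largest ratio, with a merged length of 5550 bases and a principal transcript of 1612 bases. Rescaled to the principal transcript, Slc25a3 moved from position 6 to position 1, at 154.1 FPKM, ahead of Slc25a5 at 147.4 and Slc25a4 at 145.4. Slc25a20 moved from position 16 to position 12, at 24.0 FPKM, and 9 of the 10 highest members were the same under both lengths. The share of Slc25a33 in its pair was below that of Slc25a36 under the principal length, at 44.5% in control and 46.6% in mitochondria libraries, so the order within that pair cannot be given. The leading genes Slc25a13, Slc25a37 and Slc25a39 led their pairs under both lengths. None of this touches the folds, where each gene is set against itself. Shares compared between groups do depend on the length. For Slc25a39 the difference in share was 0.366 points as deposited and 0.629 points under the principal length.

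**Figure D4:**
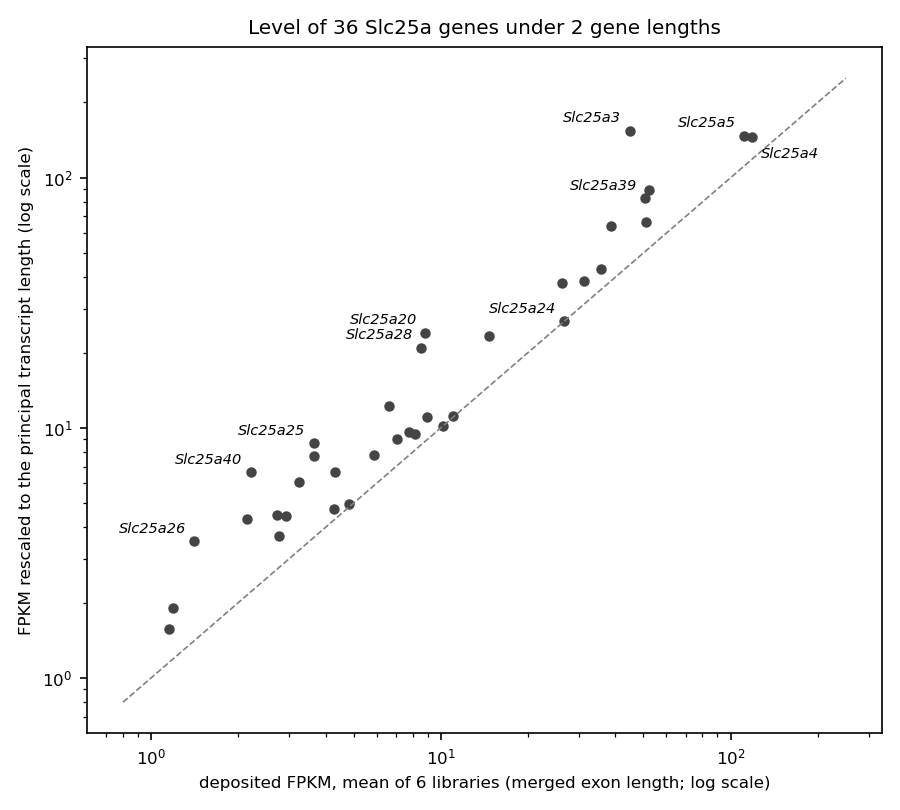
Mean level over the 6 libraries of 36 tested Slc25a genes as deposited (horizontal axis, FPKM, log scale) and after rescaling to the principal transcript length (vertical axis, FPKM, log scale), 1 point per gene, with the dashed line marking equality. Points lie on or above the line, and Slc25a3 lies farthest from it, at 44.8 against 154.1 FPKM.

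Several members sit next to each other in the genome at unlike levels. Slc25a41 lies 2.06 kb from Slc25a23 on chromosome 17, with mean levels of 0.0334 and 14.7 FPKM, and Slc25a54 lies 6.46 kb from Slc25a24 on chromosome 3, with 0.0230 and 26.7 FPKM. Slc25a29 and Slc25a47 lie on opposite strands of chromosome 12 with 0.162 kb between their annotated spans, at 5.89 and 0.673 FPKM. The RefSeq start window of Slc25a47 lies inside its span, at 108850879 to 108851178, away from Slc25a29. Slc25a43 lies 18.4 kb from Slc25a5 on the X chromosome, at 1.19 and 111.1 FPKM.

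RefSeq start windows were matched by symbol for 36 of the 47 members, in 46 windows of 32851 in the table. The median member window held 15.0 CpG dinucleotides against 7 over all windows. At least 10 were found in 35 of the 46 member windows, or 76.1%, against 43.5% of all windows. Taking the window with most CpG where a gene had several, 27 of 28 tested members held at least 10, the exception being Slc25a45, and so did 4 of 8 members under the filter, the others being Slc25a47, Slc25a21, Slc25a18 and Slc25a34. Of 3 motifs searched on both strands, CCAAT was found in 47.8% of member windows and 37.4% of all windows, CACGTG in 17.4% and 7.15%, and TATAAA in 4.35% and 13.6%. CACGTG was present in Slc25a1, Slc25a13, Slc25a14, Slc25a15, Slc25a31, Slc25a33 and Slc25a36, which include both directions of fold and 1 gene with no count, and TATAAA in Slc25a18 and Slc25a21. A match is a description of these letters and not evidence of a bound site.

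**Figure D5:**
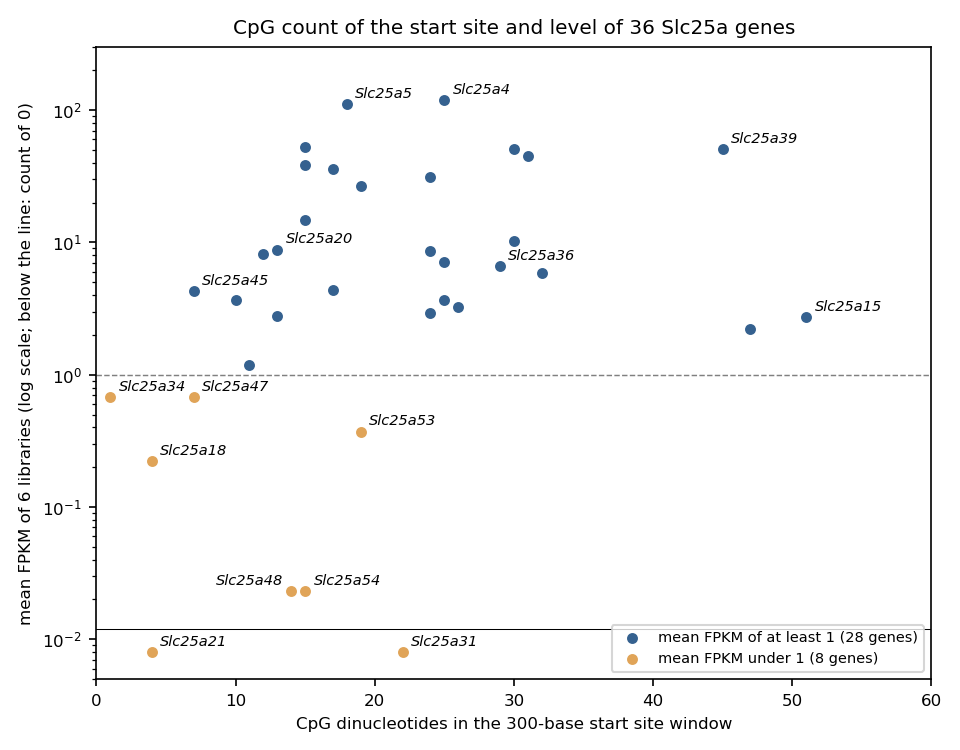
CpG dinucleotides in the 300-base start window (horizontal axis) and mean FPKM over the 6 libraries (vertical axis, log scale) of the 36 members with a RefSeq window, 1 point per gene, the window with most CpG where a gene has several. Members with a mean FPKM of at least 1 (28 genes, blue) lie at 7 to 51 CpG, and those under it (8 genes, orange) at 1 to 22.

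Other transport genes of the mitochondrial membranes were counted beside the family, and 0 members of each list were called by edgeR or by DESeq2. Of the carriers of the same fold without an Slc25a name, 3 of 5 were tested. Ucp2 was at 29.0, 32.8 and 26.2 FPKM in control libraries and at 30.3, 34.4 and 35.5 FPKM in mitochondria libraries (fold 1.13, adjusted p = 0.498), while Ucp1 and Ucp3, the forms of brown fat and muscle, had at most 4 and 12 counts. Mtch2, an outer membrane insertase, averaged 22.3 ± 0.417 FPKM (SD, n = 3) in control and 20.8 ± 0.885 FPKM (SD, n = 3) in mitochondria libraries (fold 0.924, adjusted p = 0.363). Of 6 tested genes of the pyruvate carrier and the sideroflexins, 2 had an unadjusted p under 0.05, both lower, against 6.24% of all tested genes lower. The smallest p was that of Sfxn3, a sideroflexin, at 26.7, 26.2 and 25.8 FPKM in control libraries and 22.7, 24.1 and 22.4 FPKM in mitochondria libraries (fold 0.872; adjusted p = 0.250 by edgeR and 0.0522 by DESeq2). Mpc1, a subunit of the pyruvate carrier, was at 4.13, 3.63 and 3.68 FPKM in control libraries and at 2.44, 3.26 and 2.36 FPKM in mitochondria libraries (fold 0.699, adjusted p = 0.292).

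Of 8 tested genes for calcium uptake and cation exchange, 3 had an unadjusted p under 0.05, against 13.0% of all tested genes, and 2 of these were higher. Micu2, a regulator of the calcium uniporter, had the smallest p, at 25.2, 25.2 and 23.9 FPKM in control libraries and 22.5, 22.7 and 21.7 FPKM in mitochondria libraries (fold 0.892, adjusted p = 0.279). Of 3 tested porins 1 had an unadjusted p under 0.05, Vdac2, with a fold of 0.913 (adjusted p = 0.363). None of the 4 inner membrane ABC transporters, the 13 genes of carrier import by TIM22 or the 4 malate-aspartate shuttle enzymes did. The smallest p among the import genes was that of Timm10, a chaperone that hands carriers across the intermembrane space, with a fold of 0.900 (adjusted p = 0.444).

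Pancreatic acinar transcripts were present in the control libraries. Cela1, 1 of the 10 acinar markers, was at 57.6 to 74.9 CPM in control and 53.7 to 59.3 CPM in mitochondria libraries and was not called. The 9 others summed to 108.6, 131.0 and 70.8 CPM in control libraries and to 0.172, 0.188 and 0 in mitochondria libraries, where 8 of them had a count of 0 throughout. Of the 7 markers tested, 6 were called lower by edgeR, against 0.164% of all tested genes called, but 0 were called with the replicate block. Leaving out control replicate 1 also gave 0, and leaving out control replicate 2 gave 2. Over all tested genes the block left 0 calls, against 21 in the main fit. Leaving out control replicate 1 left 1 call over all tested genes, and leaving out control replicate 2 left 15. The 6 called markers passed the FPKM filter through their control libraries alone. The list was chosen with earlier results of these data known, so the calls describe it and add no support. Of 6 osteocyte markers, Dmp1 and Mepe were at 0 in every library, whereas Fgf23 was at 2.19 to 3.83 CPM. The list summed to 2.31 to 4.08 CPM, most of it Fgf23. Muscle markers summed to 10.5 to 13.6 CPM, nearly all of it Tnnt2 at 10.2 to 13.6 CPM, with Ckm at 0 in every library. Brown fat markers summed to at most 0.247 CPM. The part of these transcripts in the levels of the carriers was not tested.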

How the data were processed

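RNA-seq of 6 bEnd.3 libraries was analysed from 1 deposited gene table. Cutadapt 1.9, HISAT2 2.2.1, StringTie 2.1.6, DESeq2, edgeR and the build GRCm38 are named without roles, per the submitters' processing notes. The authors deposited estimated counts, which are whole numbers, and FPKM values, per the file headers. Multiples of 4 made up 36.6% of the counts between 1 and 20, where an even spread gives 25%. A fragment may thus give about 4 counts, although most of these counts were not multiples of 4. The floor was set at 12 counts, taken as 3 fragments. The deposited FPKM was proportional to the count over the merged exon length within 1% in 98.5% of 10204 genes with over 500 counts in every library, and in 32 of 32 members among them. Lengths came from GENCODE M21, which held 99.5% of the table's gene IDs. Start windows came from RefSeq on GRCm38.p6.

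Counts were tested in R 4.3.3 with edgeR 4.0.16 (quasi-likelihood, TMM scaling) on 12774 genes with a mean FPKM of at least 1, and p-values were adjusted by Benjamini-Hochberg. The script was tested on simulated data. Alternatives were DESeq2 1.42.0, limma 3.58.1 on log2(FPKM + 1) and log2(FPKM + 0.1), other scalings and filters, counts divided by 4, a replicate block and leaving out each library. The principal transcript length was added after seeing the data. CPM is the count scaled to library size after TMM, and floors cover counting error only, while the intervals of folds include the spread between libraries.

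Deviations from group means correlated across genes at 0.155, 0.101 and 0.231 between same-numbered libraries, and at -0.216 to 0.084 between others. The lowest same-numbered value lay close to the highest of the others. The labels state no pairing, and whether the numbers pair the libraries was not tested. Per-library values, fold and adjusted p were given for members with an unadjusted p under 0.05, the 5 with the highest FPKM and each paralogue pair, and other members were summarised. Genes of the other lists were named where their p was the smallest of the list. Further values were chosen after they were seen, for Slc25a3, Slc25a11, Slc25a17, Slc25a23, Slc25a24, Slc25a34, Slc25a43, Slc25a44, Slc25a46, Slc25a47, Slc25a51, Slc25a54, Ucp2, Mpc1 and Cpt1b. The members and lists were chosen with earlier results of these data known. All members enter the counts and tests, and 1 tested member is not reported here by name or in the plots.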

Additional observations from a re-analysis of the deposited data

How the results depend on the processing

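The count of called carrier genes was 0 in all 15 alternative settings, and the members' median log2 fold change stayed small, at -0.054 to 0.0028, with a sign above 0 by limma and without control replicate 1. The differences between groups in the shares within subfamilies, apart from the glutathione pair, moved by less than their spread between replicates. The share of Slc25a39 in that pair was higher with mitochondria by 0.366 points of FPKM, by 0.941 points of counts and by 0.629 points under the principal transcript length. The direction was the same in every setting run for Slc25a4, Slc25a5, Slc25a10, Slc25a20, Slc25a36 and Slc25a45. Leaving out each library moved the log2 fold change of Slc25a1 between -0.078 and 0.12, and that of Slc25a39 between -0.071 and 0.011, changing sign in both, and the cause was not tested. With the replicate block the log2 fold change of Slc25a20 was 0.25 (adjusted p = 0.241), and 0 carrier genes were called with the block, which also left 0 of the 21 calls over all genes. Of the 29 other tested members, 13 changed sign under some setting and 5 under a setting with all libraries. The mean FPKM of at least 5 leaves Slc25a45 out. The 10 members under the filter were left out by FPKM, which depends on the gene length as well as on the count. Slc25a47 and Slc25a53 averaged 0.673 and 0.371 FPKM as deposited, and 1.27 and 1.15 FPKM under the principal transcript length. The floor of 12 counts concerns members with a count of 0.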
